A study of Mus musculus with 9 samples.

Results

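The genes described here make cholesterol and fatty acids or regulate their synthesis, and they are 29 of the 49585 rows of the deposited count table. They were chosen by symbol, as enzymes of the mevalonate, cholesterol and fatty acid pathways together with the SREBP regulators. All 29 were found, and all 29 passed the filter on low counts in the test across genes. Total RNA had been sequenced from flash-frozen, spontaneous breast adenocarcinomas of mice. The tumours received adeno-associated virus (AAV), a gene delivery vector, on days 0, 3 and 8 and were collected at the animals' humane endpoint. Treatment was labelled AAV-Control in 3 tumours, called controls below, and AAV-delta-mut-p53 in 6, called delta tumours. The second label names mutant p53 as the vector's target. Every mouse carried Trp53wm-R172H/fl, the Cre driver K14-Cre, whose keratin promoter works in basal epithelial cells, and Rosa26LSL CAS9-P2A-EGFP/+, from which Cre releases Cas9. No source used here says that each tumour came from its own animal, and delta 4 and delta 5 share a number in their titles, so p-values measure only the spread between these samples. Tumour numbers only name the tumours within a group and are not from the labels.

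Cells build cholesterol from acetyl-CoA through mevalonate, farnesyl diphosphate, squalene and lanosterol, and they build saturated fatty acids from acetyl-CoA and malonyl-CoA, which are then elongated and desaturated. The transcription factors SREBP1 and SREBP2, encoded by Srebf1 and Srebf2, are held in the endoplasmic reticulum by INSIG proteins when sterols are plentiful and are released to activate these genes when sterols run low. SREBP2 acts mainly on sterol genes and SREBP1 mainly on fatty acid genes. In the mammary gland, fatty acid synthesis is known for supplying milk fat.

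Stretches before the transcription starts are shown because SREBP and the CCAAT-binding factor NF-Y are known to act together at such genes. The 250 bases before the start were searched, on both strands, for TCACNCCAC, a letter pattern of sterol regulatory elements, for CCAAT and for the E-box CACGTG. Sequences were from RefSeq on GRCm38.p6, where 22 of the 29 genes had a window. CCAAT was present in 17 of 22 (77.3%), against 37.5% of 27025 genes, TCACNCCAC in 1 of 22, Hmgcs1, against 1.22%, and CACGTG in 4 of 22 against 6.86%. A match is a run of letters, not a measured binding site, and a window without one says only that these letters are absent from it. Matches are in capitals, and a pattern on the opposite strand reads ATTGG for CCAAT. Hmgcs1 and Insig1 are shown because they had the lowest fold changes of the 29 genes, and Msmo1 because it had the smallest p. The windows are chr13:119690101-119690350 on the plus strand for Hmgcs1, chr8:64733579-64733828 on the minus strand for Msmo1 and chr5:28071162-28071411 on the plus strand for Insig1. They end at RefSeq starts, which differ from the GENCODE gene positions given elsewhere. In GENCODE Msmo1 begins at 64733792 and Insig1 at 28071363, so part of each of these windows lies inside the gene. The CCAAT matches of Msmo1 all lie in that part.
Hmgcs1: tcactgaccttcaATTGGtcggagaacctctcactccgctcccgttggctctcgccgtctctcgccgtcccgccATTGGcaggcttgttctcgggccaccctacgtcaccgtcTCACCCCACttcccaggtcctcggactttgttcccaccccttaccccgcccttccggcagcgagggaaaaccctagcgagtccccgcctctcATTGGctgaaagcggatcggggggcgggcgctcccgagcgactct
Msmo1: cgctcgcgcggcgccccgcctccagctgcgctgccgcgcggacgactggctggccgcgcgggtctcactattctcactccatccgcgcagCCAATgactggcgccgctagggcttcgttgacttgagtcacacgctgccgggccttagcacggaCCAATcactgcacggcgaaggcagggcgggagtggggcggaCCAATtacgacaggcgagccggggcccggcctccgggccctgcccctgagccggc
Insig1: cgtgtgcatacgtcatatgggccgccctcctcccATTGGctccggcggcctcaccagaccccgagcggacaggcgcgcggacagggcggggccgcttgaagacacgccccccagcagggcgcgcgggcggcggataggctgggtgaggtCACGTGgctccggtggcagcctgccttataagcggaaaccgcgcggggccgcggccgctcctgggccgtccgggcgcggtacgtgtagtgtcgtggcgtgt

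Library totals ran from 18581545 to 30953250 counts, and each control library was deeper than every delta library. Values below are CPM, a gene's counts relative to the library total after scaling by TMM factors. Trp53 RNA, the target, was 39.2 to 48.4 CPM in controls and 13.1 to 41.4 CPM in delta tumours, with a log2 fold change of -0.42 (FDR = 0.78 by edgeR). The exact 2-sided permutation test of Trp53 gave p = 0.131, where 0.0119 is the smallest value that 84 assignments allow. Of 10 mammary epithelium markers, 10 were detected in every tumour, with summed levels of 2113 to 3165 CPM in controls and 283 to 5376 CPM in the other group. Delta 2 stood apart, with the 283 CPM of epithelium markers and 43411 CPM of 10 skeletal muscle markers, which summed to 30.9 to 414 CPM in the other 8 tumours. Values without delta 2 are given beside member results that it moves.

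The most abundant members per length were the desaturases. Levels between genes were compared as CPM per kb of annotated exon, averaged over the 9 tumours. Scd1 and Scd2, stearoyl-CoA desaturases that make monounsaturated fatty acids, stood at 184 and 131 CPM per kb, above 99.2% and 98.85% of the genes tested. Fads2 and Fads1, which desaturate polyunsaturated fatty acids, followed at 48.5 and 35.4 CPM per kb, with Acly, the ATP citrate lyase that provides cytosolic acetyl-CoA, between them at 46.9 CPM per kb. Among sterol enzymes Hmgcs1, the cytosolic HMG-CoA synthase, was the most abundant at 29.4 CPM per kb. Cyp51, the lanosterol demethylase, at 22.4 CPM per kb, and Sqle, the squalene epoxidase, at 22.1 CPM per kb, came next, and their ranges over tumours overlapped. Srebf1 was at 32.5 CPM per kb, and the counts do not separate the SREBP1a and SREBP1c transcripts of Srebf1.

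The lowest members were Fdps, the farnesyl diphosphate synthase, at 0.672 CPM per kb and Idi1, the isopentenyl diphosphate isomerase, at 1.58 CPM per kb. Near-identical copies touch both values, since a read that fits several genes can be split or lost in counting. Stretches of at least 75 bases with at least 95% identity in transcripts of other genes covered 91.4% of the longest coding transcript of Fdps, spread over 6 genes, and 33.3% of that of Idi1, over 3. They also covered 65.6% for Acat2, an acetyl-CoA acetyltransferase whose stretches lie in Acat3 and Tcp1, 64.3% for Acaca, the acetyl-CoA carboxylase, and 54.7% for Fdft1, the squalene synthase. Counts of these 5 genes are uncertain in size. Smaller shares were covered for Hmgcs1 (16.2%), Elovl6 (15.2%, spread over 85 genes) and Scd2 (11.4%, in a transcript of Scd1). Identity was taken over a whole alignment, so near-identical pieces of a less similar alignment were not counted. The search took both strands and did not set aside genes that overlap a member in the genome. Part of a share may therefore be such an overlap and not a separate copy. No alignment passed for Sqle, Msmo1, Fasn or Acly.

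**Figure D1:**
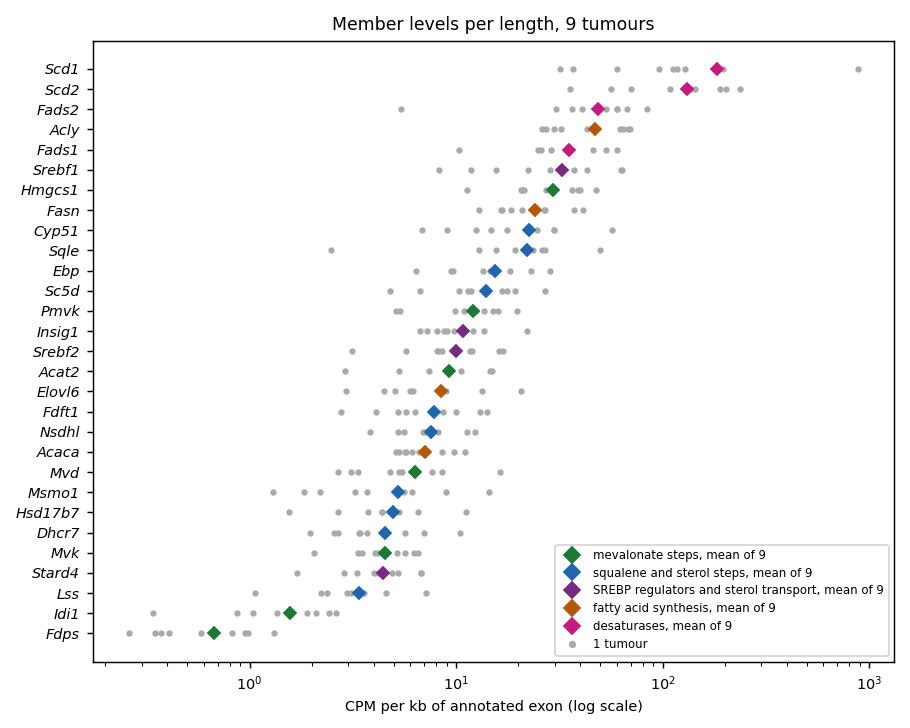
Level of each member as CPM per kb of annotated exon, on a log scale. Diamonds are means of 9 tumours coloured by role group and grey points are single tumours. Scd1 and Scd2 lie at the top at 184 and 131, Idi1 and Fdps at the bottom at 1.58 and 0.672.

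The main comparison was between the treatments. In delta tumours 23 of the 29 members had a higher mean and 6 a lower one, and none passed the test. The median log2 fold change was 0.22, beside 0.09 over all 19606 genes tested, of which 55.6% had a higher mean. In edgeR's quasi-likelihood test 0% of all genes and 0 of 29 members passed an FDR of 0.05, and the smallest FDR among members was 0.677. At an unadjusted p under 0.05 there was 1 member, Msmo1, on the higher side. The same threshold took 7.07% of all genes, 3.82% on the higher side and 3.26% on the lower. DESeq2 also called 0 members at an FDR of 0.05, while it called 0.553% of the genes it tested. It put 3 members (Msmo1, Mvd and Scd1) at an unadjusted p under 0.05, against 10.2% of genes. In 0 of the 29 members did the groups fail to overlap, against 3.06% of genes, 1.47% with every delta tumour above the controls and 1.59% with every one below. Without delta 2, 27 members had a higher mean and 2, Hmgcs1 and Insig1, a lower one, against 53.3% of genes with a higher mean. The groups of Mvd then no longer overlapped, the 1 such member, against 2.66% of genes on the higher side. The count at an unadjusted p under 0.05 was 3 without delta 2 (Msmo1, Mvd and Acly), against 8.79% of genes. It was 2 without delta 4 (Msmo1 and Scd1) and 0 without control 1. Without control 2 it was 1, and that member was Insig1. Over all genes the count was 1387 in the 9 tumours, 1371 without delta 4, 1026 without control 1 and 874 without control 2. The median log2 fold change was 0.43 without delta 2 and 0.55 without control 3, and 18 members had a higher mean without control 1, 19 without delta 6 and 20 without delta 3.

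**Figure D2:**
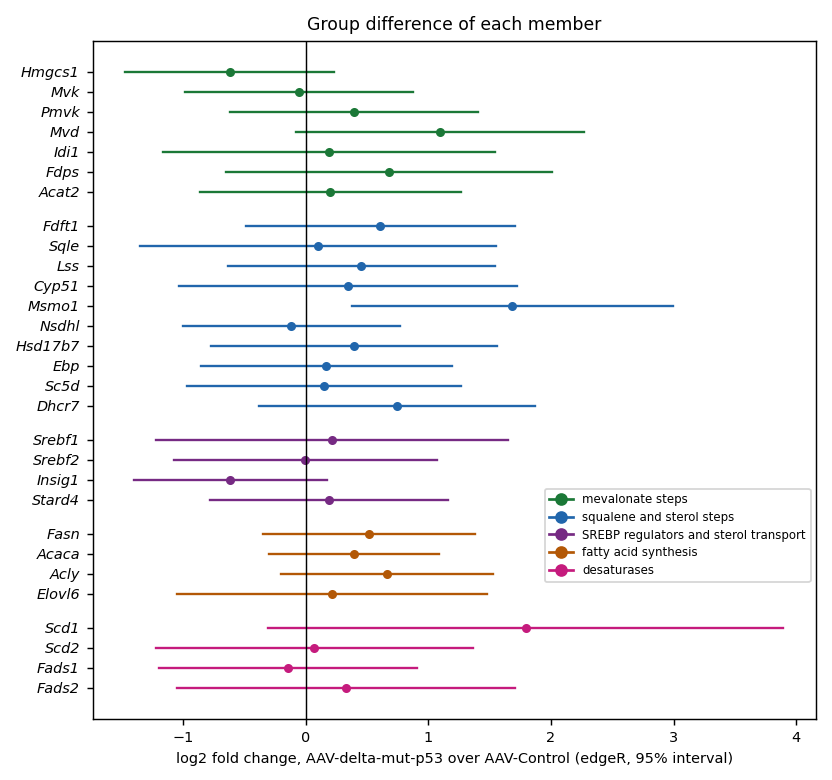
Log2 fold change of each member, delta over control, with its 95% interval from edgeR. The interval lies above 0 for Msmo1 (0.38 to 2.99) and includes 0 for the other 28 members.

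Along the mevalonate steps the enzymes did not share a direction, with 5 of 7 higher in delta tumours by their mean and 2 lower. Without delta 2, 6 were higher and 1, Hmgcs1, was lower. Of all genes 55.6% had a higher mean in delta tumours, and 53.3% without delta 2. Hmgcs1, on chromosome 13 from 119690379 to 119708260 (GRCm38), held 126, 182 and 219 CPM in controls, and 51.9 to 179 CPM with a median of 96.8 CPM in delta tumours. Delta 1, 2, 4 and 6 lay below every control, and numbers 3 and 5 lay within the control range. Its log2 fold change was -0.62 (SE 0.38; FDR = 0.698 by edgeR), -0.43 without control 3 and -0.46 without delta 2.

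Mvd, the mevalonate diphosphate decarboxylase, on chromosome 8 from 122433601 to 122443422, held 6.24, 4.96 and 8.93 CPM in controls, and 5.76 to 30.2 CPM with a median of 12.1 CPM in the other group. Delta 2 was the 1 tumour of its group below a control, and delta 3 was the highest. The log2 fold change of Mvd was 1.09 (SE 0.53; FDR = 0.677 by edgeR), 0.73 without delta 3 and 1.27 without delta 2. Idi1 held 3.05, 3.63 and 8.50 CPM in controls, and 1.20 to 9.16 CPM with a median of 6.06 CPM in the other group. The controls of Idi1 lay inside the range of the delta tumours. Its log2 fold change was 0.19 (SE 0.61), -0.07 without control 1, 0.78 without control 3 and 0.42 without delta 2. The other members of the step, Mvk and Pmvk, which phosphorylate mevalonate in turn, Fdps and Acat2, had log2 fold changes from -0.06 for Mvk to 0.68 for Fdps. The value of Fdps was 1.32 without control 3 and 0.40 without control 2, and that of Mvk was 0.10 without delta 2.

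Msmo1, the sterol C4-methyl oxidase that acts after lanosterol demethylation, had the smallest p of the members. The gene lies on chromosome 8 from 64718139 to 64733792. It held 11.3, 7.99 and 19.8 CPM in controls. Delta 1 to 6 held 37.5, 22.7, 54.8, 34.2, 13.4 and 88.3 CPM. Delta 5 lay within the control range, and the other 5 lay above it. The control mean was 13.0 ± 6.10 CPM (SD, n = 3), and the delta mean was 41.8 ± 26.7 CPM (SD, n = 6). The log2 fold change was 1.68 (SE 0.59; 95% interval 0.38 to 2.99), with an FDR of 0.677 in edgeR's test. Leaving out single tumours gave values from 1.34 without delta 6 to 2.11 without control 3, and the unadjusted p was above 0.05 without control 1 or control 2.

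Genes on either side of Msmo1 in the pathway had smaller fold changes. Sqle held 71.5, 149 and 131 CPM in controls, and 13.8 to 277 CPM with a median of 116 CPM in delta tumours. Tumour 2 of that group was below all others and tumour 6 was the highest of the 9. Sqle had a log2 fold change of 0.10 (SE 0.66; 95% interval -1.35 to 1.55), with -0.29 without delta 6, -0.16 without control 1 and 0.34 without delta 2. Dhcr7, the last reductase of cholesterol synthesis, held 15.0, 19.6 and 20 CPM in controls, and 11.4 to 60.4 CPM with a median of 27.2 CPM in the other group. Controls of Dhcr7 sat close together and the delta tumours lay on both sides of them, with a log2 fold change of 0.74 (SE 0.51; FDR = 0.715 by edgeR). The other 7 enzymes of this stretch were Fdft1, Lss (lanosterol synthase), Cyp51, Nsdhl and Hsd17b7 (which remove the C4 methyl groups together with Msmo1), Ebp (the sterol isomerase) and Sc5d (the sterol desaturase). Their log2 fold changes ran from -0.11 for Nsdhl to 0.61 for Fdft1, with FDR of at least 0.76 by edgeR, and from 0.02 to 0.80 for the same genes without delta 2.

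Hmgcs1 and Msmo1, at the head and toward the end of the same pathway, differed in opposite directions. The ratio of Hmgcs1 CPM to Msmo1 CPM, chosen after the values were seen, was 11.2, 22.8 and 11 in controls. The delta tumours held 2.53, 2.28, 3.06, 2.81, 13.3 and 1.11, from number 1 to number 6. Number 5 lay within the control range and the other 5 lay below it. No test was made of this ratio, because both genes were picked for their differences.

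The regulators showed wide spread between tumours. Srebf1 held 160, 211 and 125 CPM in controls. Delta 1 to 6 held 66.3, 46.7, 358, 87.9, 353 and 242 CPM. Delta 1, 2 and 4 lay below all controls and delta 3, 5 and 6 above them. The log2 fold change was 0.22 (SE 0.65), -0.05 without delta 3 or without delta 5, and 0.43 without delta 2. Srebf2 held 59.3, 116 and 41.0 CPM in controls, and 22.6 to 121 CPM with a median of 72.6 CPM in delta tumours. Its log2 fold change was -0.00 (95% interval -1.07 to 1.07), 0.01 with scaling by library size alone, 0.53 without control 2 and 0.19 without delta 2. Srebf1 CPM divided by Srebf2 CPM was 2.70, 1.81 and 3.05 in controls and ran from 0.79 in delta 1 to 5.77 in delta 5.

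Insig1, which retains SREBP in the endoplasmic reticulum and is itself an SREBP target, held 37.5, 24.9 and 68.1 CPM in controls, and 20.6 to 42.0 CPM with a median of 27.5 CPM in delta tumours. Control 3 was the highest of the 9 tumours. The log2 fold change of Insig1 was -0.61 (SE 0.36; FDR = 0.689 by edgeR), -0.14 without control 3 and -0.88 without control 2. Stard4, a cytosolic sterol carrier, held 16.0, 22.3 and 29.2 CPM in controls, and 9.45 to 37.9 CPM with a median of 25.4 CPM in the other group, which overlapped the controls on both sides. Its log2 fold change was 0.19 (SE 0.44), and 0.37 without delta 2.

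**Figure D3:**
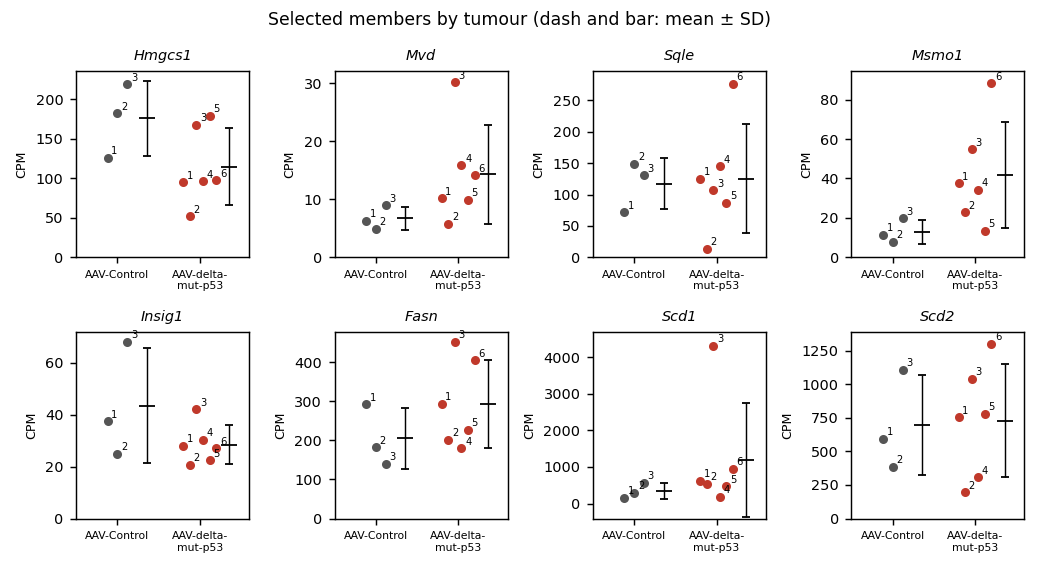
CPM of 8 members in each tumour, with tumour numbers beside the points and the mean ± SD of each group as dash and bar (n = 3 and n = 6). Msmo1 is above the control range in 5 of 6 delta tumours, and Scd1 reaches 4315 CPM in number 3.

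All 4 genes of fatty acid synthesis and elongation had a higher mean in delta tumours, by log2 fold changes of 0.22 to 0.66, and 0 of 4 passed the test. Acly held 138, 227 and 170 CPM in controls. Delta 1 to 6 held 157, 144, 339, 329, 357 and 368 CPM. Numbers 3 to 6 lay above every control and numbers 1 and 2 within the control range. Its log2 fold change was 0.66 (SE 0.39; FDR = 0.689 by edgeR) and 0.81 without delta 2. Fasn, the fatty acid synthase, held 292, 182 and 141 CPM in controls, and 180 to 452 CPM with a median of 261 CPM in the other group. Only delta 1, 3 and 6 exceeded control 1, the highest control, and the log2 fold change was 0.52 (SE 0.39; FDR = 0.74 by edgeR).

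Acaca, whose product malonyl-CoA feeds the synthase, held 97.0, 90.6 and 113 CPM in controls, and 87.1 to 189 CPM with a median of 125 CPM in delta tumours. It varied least of the members, with an SD within groups of 0.39 on the log2(CPM + 1) scale. Elovl6, which elongates palmitate, held 32.5, 28.9 and 85.7 CPM in controls, and 18.9 to 132 CPM with a median of 47.2 CPM in the other group. The highest value of Elovl6 was in delta 3, and its log2 fold change was 0.22 over the 9 tumours, -0.22 without delta 3, -0.04 without control 2 and 0.88 without control 3.

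Scd1 had the largest fold change of the 29 members, and 1 tumour moved that value by more than 1 on the log2 scale. Scd1 held 156, 293 and 574 CPM in controls. Delta 1 to 6 held 625.5, 546, 4315, 181, 469 and 954 CPM. Numbers 1, 3 and 6 lay above every control, and number 4 lay near the lowest control. The log2 fold change was 1.79 (SE 0.95; FDR = 0.678 by edgeR) over the 9 tumours, 0.70 without delta 3 and 2.39 without control 3. Scd2, also on chromosome 19, held 592, 385 and 1108 CPM in controls, and 194 to 1301 CPM with a median of 767 CPM in the other group. For Scd2 the log2 fold change was 0.07 (SE 0.58), and it ran from -0.21 to 0.57 as single tumours were left out (control 2 and control 3), with 0.28 without delta 2.

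The balance of these desaturases differed between tumours. Reads of their shared stretch could be assigned to either gene, which bears on this share. Scd1 made up 20.9%, 43.2% and 34.1% of the summed Scd1 and Scd2 CPM in controls. Its share was 45.4%, 73.8%, 80.6%, 37.0%, 37.5% and 42.3% in delta 1 to 6. Tumours 2 and 3 were high through different genes: Scd2 was lowest of the 9 in number 2, and Scd1 was highest of the 9 in number 3. Of the polyunsaturated fatty acid desaturases, Fads2 held 99.98, 133 and 176 CPM in controls, and 17.8 to 276 CPM with a median of 197 CPM in the other group, with a log2 fold change of 0.33 (SE 0.62) that was 0.58 without delta 2. Fads1 had one of -0.14 (SE 0.48), 0.05 without delta 2 and 0.19 without control 1. Both were lowest in delta 2.

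Members varied widely from tumour to tumour. Delta 6 was the highest of the 9 tumours for 11 members and delta 3 for 10. The mean of the 17 sterol enzymes on the log2(CPM + 1) scale lay 0.66 above the 9-tumour mean in number 6 and 0.60 above it in number 3. The mean of the 8 fatty acid enzymes lay 0.66 and 0.87 above it in the same tumours. In delta 4 the sterol enzymes were 0.39 above and the fatty acid enzymes 0.33 below, and in number 5 the order was the other way, with -0.25 and 0.31. Members together took 0.243% to 0.348% of the library in controls and 0.162% to 0.772% in the other group.

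**Figure D4:**
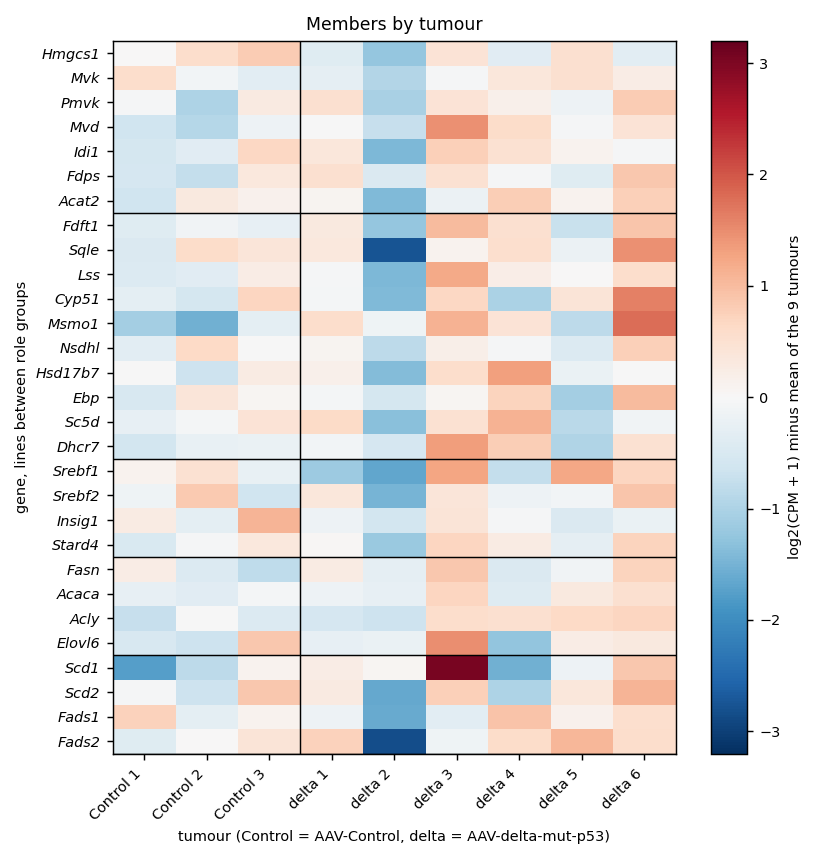
Log2(CPM + 1) of each member minus its mean over the 9 tumours, in colour, with genes in rows by role group and tumours in columns. Delta 2 is the lowest tumour for 19 of 29 members, and delta 3 and 6 are the highest for 10 and 11.

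Delta 2 was the lowest tumour for 19 of the 29 members, while 19% of all genes tested were lowest there. Sqle was at 10.8% and Fads2 at 9.55% of the median of the other 8 tumours. The count was 12 of 17 for sterol enzymes, 4 of 4 for Srebf1, Srebf2, Insig1 and Stard4, and 3 of 4 for desaturases. None of the 4 fatty acid synthesis and elongation genes was lowest in this tumour. There Fasn stood at 78%, Acaca at 90.2%, Acly at 51.6% and Elovl6 at 85.5% of the median of the other tumours, and Scd1 at 105%.

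Marker lists of several cell types were set beside these values. In delta 2 the epithelial adhesion gene Epcam was at 32.3 CPM, against 487 to 1001 CPM elsewhere. Delta 2 was the lowest tumour for 5 of the 10 epithelium markers. Krt19, Krt5 and Trp63, at 38.6, 28.1 and 38.5 CPM in it, were among those that were lower elsewhere. Krt19 was at 3.58 CPM in delta 6, and Krt5 and Trp63 were at 1.75 and 3.46 CPM in delta 3. The 10 adipocyte markers summed to 709 CPM in this tumour and 31.8 to 182 CPM in the other 8. All 10 adipocyte markers had reads in every tumour, apart from Lep in delta 6. Adipoq, the adipocyte hormone adiponectin, was at 34.7 CPM in delta 2 and at most 5.36 CPM in the others. The 10 of 12 leukocyte markers that passed the filter summed to 1295 CPM in delta 2 and 161 to 522 CPM elsewhere, with Cd3e at 0 in delta 3. Of these 10 markers 6 were highest in delta 2. The neutrophil genes S100a8 and S100a9 went the other way, at 2.03 and 3.60 CPM there, lower than in every other tumour but control 2. The part of these cells in the low sterol values was not tested, and in whole tumours fewer cells of a type and less RNA per cell cannot be told apart. The 8 of 10 markers of sebaceous glands, a lipid-making skin structure, that passed the filter summed to 78.8 to 249 CPM in controls and 118 to 295 CPM in the other group. Most of these sums came from Soat1, at 57.7 to 150 CPM over the tumours, and Krt79, at 2.17 to 188 CPM. Soat1 was also listed among the genes of sterol efflux. The rest stayed at or below 11.1 CPM, and Awat2, Elovl3 and Mc5r at or below 2.03 CPM, so the sums do not show sebaceous tissue. Awat1, an acyltransferase of sebum wax, was at 0 in both groups, in controls 1 and 2 and delta 1, 3 and 6.

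**Figure D5:**
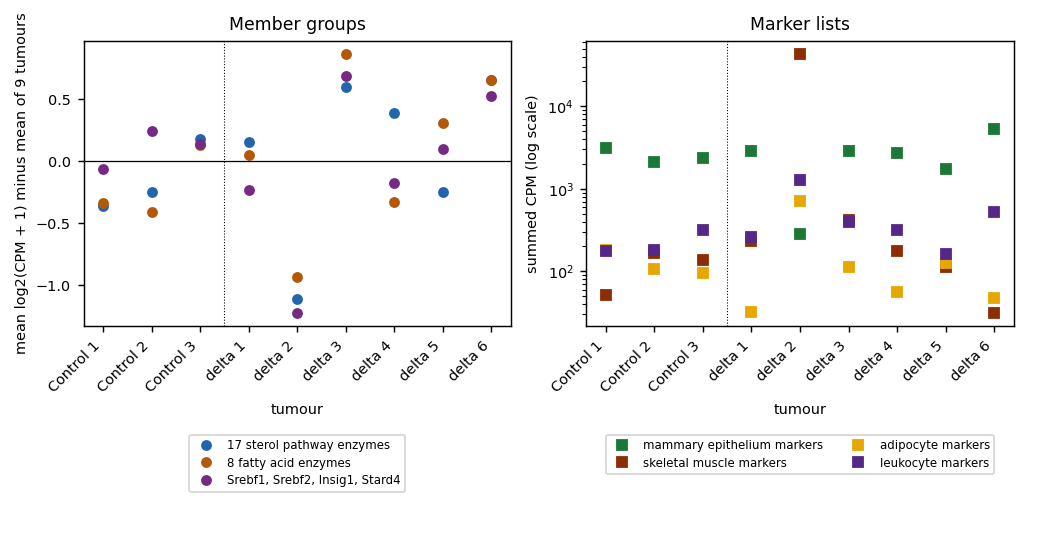
On the left, the mean log2(CPM + 1) of 17 sterol enzymes, 8 fatty acid enzymes and the 4 regulator and carrier genes in each tumour, minus the mean of 9 tumours. On the right, the summed CPM of 4 marker lists on a log scale, where delta 2 has 43411 CPM of muscle and 283 CPM of epithelium markers.

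Most pairs of members were positively correlated across the tumours. Over the 136 pairs of sterol enzymes the median Pearson correlation of log2(CPM + 1) across 9 tumours was 0.55, and 131 pairs were above 0. The median was 0.412 over 28 pairs of fatty acid enzymes, 0.442 over 136 pairs of a sterol with a fatty acid enzyme, and -0.0033 over all pairs of genes tested. Without delta 2 these medians were 0.367, 0.232 and 0.224, with 105, 20 and 96 pairs above 0. All pairs share the same tumours, with their library depth and cell mixture, so these values describe the 9 libraries. The median SD within groups was 0.75 for members and 0.52 for all genes tested on the log2(CPM + 1) scale, and 0.55 and 0.47 without delta 2.

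Levels of 3 other gene programmes stand beside these values. The 12 interferon-stimulated genes, which respond to viral signals, summed to 149 to 256 CPM in controls, to 82.1 and 95.2 CPM in delta 1 and 5, and to 879 to 1120 CPM in delta 2, 3, 4 and 6. Of these genes 12 of 12 had a higher mean in delta tumours, and 0 passed an FDR of 0.05 in edgeR's test. The 6 of 10 milk secretion markers that passed the filter summed to 107, 1570 and 113 CPM in controls and 101 to 2098 CPM in delta tumours. Csn3 alone gave 1454 CPM in control 2. Of the 6 markers 5 had a higher mean in delta tumours, with a median log2 fold change of 3.12, and 0 passed an FDR of 0.05. By edgeR 4 of 6 were higher at an unadjusted p under 0.05, against 3.82% of all genes. Both Csn2 and Csn1s1, which are among these, passed the filter through delta tumours. Their raw counts in controls 1 to 3 were 7, 2 and 6 for Csn2 and 4, 11 and 37 for Csn1s1. Genes that pass this way are high in delta tumours from the start. The counts and the median over the 6 markers are therefore no evidence of a group difference. Csn1s1 and Btn1a1 had every delta tumour above every control, as did 1.47% of all genes. For Csn1s1 the margin was 1.77 CPM in delta 5 over 1.46 CPM in control 3, which is 40 and 37 raw counts. Its level was 432 CPM in delta 3 and at most 11.2 CPM in the other delta tumours. Without delta 2, 4 of 6 had a higher mean, with a median of 2.72. The 10 proliferation genes summed to 2066 to 3076 CPM in controls and 709 to 2359 CPM in delta tumours, and 9 of 10 had a lower mean. The 709 CPM was in delta 2, and without it 5 of 10 had a lower mean, while interferon-stimulated genes were still higher in 12 of 12. Their part in the member values was not tested.

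Other genes of the same pathways showed no call either. Among 8 further genes of sterol and isoprenoid synthesis 3 had a higher and 5 a lower mean, with a median log2 fold change of -0.07. Among 9 genes of SREBP processing and sterol uptake 3 were higher and 6 lower, with a median of -0.09. Mbtps2, the protease that makes the second cut in SREBP, had every delta tumour (18.0 to 32.0 CPM) below every control (32.6 to 40.6 CPM), and its FDR by edgeR was 0.677. It was chosen after its values were seen, as the 1 gene of this list whose groups did not overlap. Of all genes tested 1.59% had every delta tumour below the controls. Of 10 genes of sterol efflux and the sterol-sensing receptors LXR, 5 were higher and 5 lower, with a median of 0.06. Of 20 further genes of fatty acid synthesis and elongation 15 were higher and 5 lower, with a median of 0.31. Of these 20 genes 1 had an unadjusted p under 0.05 by edgeR, as did 7.07% of all genes tested. It was Pnpla3, a lipid droplet protein, which passed the filter through delta tumours (9, 8 and 19 raw counts in controls). Pnpla3 held 0.27 to 0.75 CPM in controls, 9.17 CPM in delta 2 and 0.49 to 1.75 CPM in the other 5 delta tumours. Delta 2 was above the rest, and the log2 fold change of 2.47 became 1.35 without it, with an unadjusted p above 0.05. Of 10 genes of glyceride synthesis and lipid droplets 7 were higher and 3 lower, with a median of 0.17. Without delta 2 the medians of the 5 lists, in the order given, were 0.08, 0.0080, -0.11, 0.29 and 0.22, and those of the first 3 changed sign. Mbtps2 remained the 1 gene of its list whose groups did not overlap. Among all genes then tested, 512 of 19200 had every delta tumour below the controls. In these 5 lists 0 genes passed an FDR of 0.05 in edgeR's test.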

How the data were processed

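The authors deposited raw read counts per gene for the 9 tumours, used here as they stood. Per the submitters' processing notes, STAR 2.6.0b, DESeq2 and GRCm38 were used, in roles that are not specified. Libraries were strand-specific total RNA, per the labels' protocols. For the counting program, strand setting and annotation release nothing was given in the sources used here. Each of the 9 count columns carried the title of 1 tumour.

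Symbols were matched for 49326 of 49585 identifiers, and positions and exon lengths came from GENCODE M21 on GRCm38. Genes kept by filterByExpr (minimum count 10) were tested, 19606 in all, with the 2-sided quasi-likelihood test of edgeR 4.0.16 in R 4.3.3, TMM scaling and no covariate, and Benjamini-Hochberg adjustment over all of them at an FDR of 0.05. SE and 95% intervals came from the same fit. CPM used TMM factors, and log2 levels used a pseudocount of 1. Alternatives were library size or DESeq2 size factors, DESeq2 1.42.0, limma 3.58.1 voom with sample weights, other filters, scaling without muscle genes, the sum of the delta 4 and 5 pair and each tumour left out. List counts and Pnpla3 without delta 2 were added after seeing the data. The edgeR, DESeq2 and voom fits were tested on simulated data. Copies were sought with blastn 2.17.0. Members and lists were chosen with earlier results of these data known. Genes given in full were 11 fixed ones and the 2 with the smallest p in each role group, and a few listed genes are not reported here.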

Additional observations from a re-analysis of the deposited data

Results flagged for a closer look

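Of 32 sets of values in the 6 delta tumours (29 members, Trp53 and the means of the sterol and fatty acid enzymes), 2 held a tumour whose gap to the nearest other value was too large a share of the range by Dixon's 95% criterion. Chance gives this in about 5% of sets if the values are normally distributed, which was not tested. Both were in delta 3, and both gaps were taken on CPM, not on the log2 scale. Scd1 was at 4315 CPM there and at 954 CPM in the next tumour, a gap of 0.813 of the range. Elovl6 was at 132 CPM there and at 57.6 CPM in the next, a gap of 0.659 of the range.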

How the results depend on the processing

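No paired analysis was possible because the labels give no replicate numbers, and the numbers used here only name tumours. The count of genes past an FDR of 0.05 was 0 in edgeR under each scaling, filter, summed pair and left-out tumour and 0 with voom, and 104 with DESeq2. No member passed in any of these fits. Members at an unadjusted p under 0.05 numbered 1, 3 with DESeq2, 3 with voom, and 0 to 3 with 1 tumour left out. Over all genes these counts were 1387, 1922 with DESeq2, 2038 with voom, and 874 to 2014 with 1 tumour left out. The median log2 fold change of the members stayed between 0.19 and 0.55, and that of Trp53 between -0.59 and -0.25. Of 493 member values under alternatives, 458 kept their direction and 35 turned, in 14 members, and the fold changes of the other 15 kept their sign throughout. With voom Nsdhl turned to 0.092, Srebf1 to -0.077 and Srebf2 to 0.16. Srebf2 was also 0.014 with library size alone, 0.0089 with a stricter filter and 0.036 with the pair summed. With 1 tumour left out the ranges were -0.25 to 0.27 for Mvk, -0.075 to 0.78 for Idi1, -0.047 to 0.42 for Acat2, -0.29 to 0.34 for Sqle, -0.10 to 0.81 for Cyp51, -0.32 to 0.22 for Nsdhl, -0.066 to 0.41 for Ebp, -0.12 to 0.37 for Sc5d, -0.054 to 0.44 for Srebf1, -0.29 to 0.53 for Srebf2, -0.0049 to 0.42 for Stard4, -0.22 to 0.88 for Elovl6, -0.21 to 0.57 for Scd2 and -0.38 to 0.19 for Fads1. The causes were not tested. The lowest raw counts of a member in any tumour were 26 for Idi1 and 33 for Fdps, which limits these 2 most, and the other 27 had at least 119.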
